A study of Homo sapiens with 4 samples.

Results

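The regions described here are sites on chromosomes 1 to 22 that carried a strong ATAC-seq peak in both libraries of BCPAP cells treated with 5-azacytidine and no peak in either untreated library. BCPAP is an established human thyroid cancer cell line. The peaks of the 4 deposited lists were merged wherever they shared at least 1 bp, and a region was kept when its summit coverage, the number of reads stacked at the highest point of the peak, was 10 or more in treated replicates 1 and 2. The regions were thus chosen by their measured coverage. This left 512 of 366095 merged autosomal regions, called strong gained regions below. The study profiled chromatin accessibility in the line with and without the demethylating agent. The untreated group and the 5-azacytidine group held 2 libraries each, all from the same line without any other agent named. The labels give neither a dose nor a duration, and no label tells whether the replicates were grown as separate cultures. Any spread between replicates may therefore be technical only. Results from 1 cell line describe that line.

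In ATAC-seq a transposase cuts exposed DNA and leaves sequencing adapters there, so that open promoters, enhancers and insulators appear as piles of reads. Methylation of cytosine in CpG dinucleotides is common at silenced regulatory sites, and methyl-binding proteins and reduced binding of some transcription factors accompany it. 5-Azacytidine is built into nucleic acids, where it traps DNA methyltransferases, so that methylation is diluted as treated cells divide. It also enters RNA and is toxic, so a changed site is not by itself a demethylated site. Methylation was not measured in these libraries, and the thyroid markers of the line were not checked, since gene positions on hg19, the build of the files, were not used here. For the same reason no gene is assigned to a region, and no sequence is printed.

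The 4 libraries differed in the height of their peaks. Untreated replicate 1 had 216020 autosomal peaks and untreated replicate 2 had 218581, while the treated lists had 254980 and 239875. In the 103006 autosomal regions found in all 4 lists, called shared regions below, summits had a median of 23 and 18 reads without treatment against 11 and 16 with it, in order of replicate number. A coverage of 10 was therefore close to the middle of shared regions in treated replicate 1 and well below it in the other libraries.

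The coverage of strong gained regions chose them, so it is given as a description with no test. In treated replicate 1 the lowest, median and highest coverage were 10, 12 and 36. In treated replicate 2 they were 10, 13 and 45. Coverage was higher in treated replicate 2 at 326 regions, higher in treated replicate 1 at 113 and equal at 73. Set against the shared regions of the same library, 69.9% of strong gained regions (358 of 512) reached the median in treated replicate 1, and 35.5% (182 of 512) did so in treated replicate 2. Most were thus at or above the middle of shared regions in treated replicate 1 and below it in treated replicate 2. Most lay near the threshold. The weaker of the 2 treated libraries stood at exactly 10 in 200 regions, whose stronger library ran from 10 to 28 with a median of 12. Just outside the threshold, 355 further gained regions had 9 in the weaker library and 9 to 23 in the stronger, with a median of 11. A coverage of at least 15 in both treated libraries was reached by 67 regions, of at least 20 by 15 regions and of at least 30 by 2 regions.

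**Figure D1:**
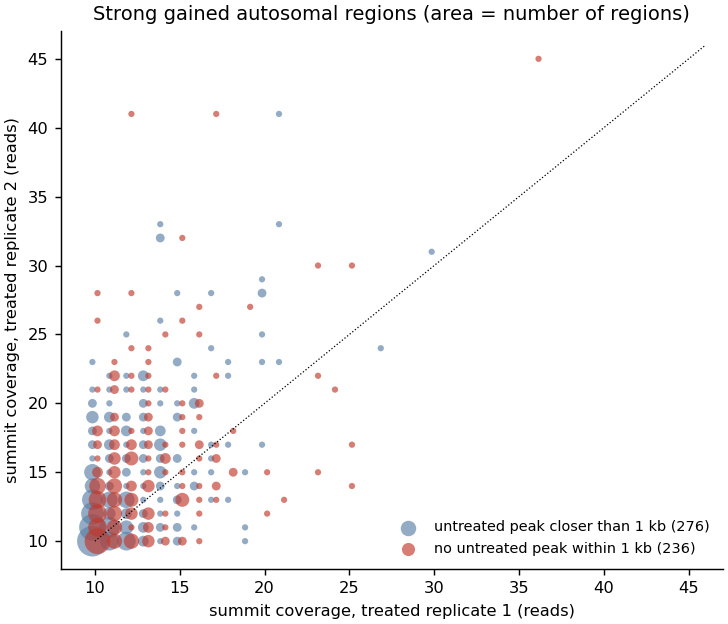
Summit coverage (reads) of the 512 strong gained regions in treated replicate 1 (horizontal axis) and treated replicate 2 (vertical axis). The area of a point gives the number of regions at that pair of values, the dotted line marks equal coverage, and colours separate the 276 regions with an untreated peak closer than 1 kb from the other 236, which are moved slightly sideways. Most points lie near 10 and above the line, and the isolated point at 36 and 45 is the strongest region.

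Strong gained regions made up 0.140% of merged autosomal regions, and all gained regions, of any coverage, 4.23%. The opposite class, with coverage of 10 or more in both untreated libraries and no treated peak, held 948 regions or 0.259%. Classes with strong peaks in 1 untreated and 1 treated list and none in the other lists, called mixed classes below, were smaller. Untreated replicate 1 shared 55 such regions (0.0150%) with treated replicate 1 and 282 (0.0770%) with treated replicate 2. Untreated replicate 2 shared 35 (0.00956%) and 90 (0.0246%) with them. On the log2 scale the ratio of strong gained to strong lost regions was −0.89. It turned to 1.87, with 1352 gained and 369 lost regions, when coverage was first scaled so that all 4 libraries had the same median over shared regions, with the same minimum of 10. The order of the gained and lost classes thus depended on how the libraries were scaled. The rule itself defines these counts, so they carry no test.

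Nearly all strong gained regions held a single listed peak from each treated list. In 464 of 512 (90.6%, 95% Wilson interval 87.8 to 92.9, counting error only) each treated list contributed 1 peak. The median width of the merged region was 530 bp, close to the 500 bp interval that the authors gave each peak, and the widest was 2028 bp. The fixed interval largely sets this width, so it does not give the extent of the open site. By the authors' peak names, 100 regions (19.5%, interval 16.3 to 23.2) were summits of a wider called peak in both treated lists.

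Strong gained regions were often direct neighbours of constitutive sites. The median distance to the nearest shared region was 2760 bp, with a 95% order-statistic interval of 2127 to 3423. It depended on the rule more than on counting: it was 7296 bp for regions with no untreated peak within 1 kb, 743 bp without untreated replicate 2, 1362.5 bp without treated replicate 2, 1543 bp without untreated replicate 1 and 1715.5 bp without treated replicate 1. A shared region lay within 10 kb of 78.1% of them (400 of 512, interval 74.3 to 81.5), and closer than 100 bp to 18.2% (93 of 512, interval 15.1 to 21.7). At the other end, 55 regions (10.7%) were more than 20 kb away from any shared region. Weaker gained regions had a similar median of 2971 bp, and 7.61% of them had a shared region closer than 100 bp. Strong lost regions lay farther out, with a median of 5648 bp (interval 4778 to 6239), and 6.43% had a shared region closer than 100 bp. The mixed class of both replicates 2 had a median of 107 bp, and 48.9% of it had a shared region closer than 100 bp. The largest mixed class, untreated 1 with treated 2 (282 regions), was close to the strong gained class. Its median was 3052.5 bp (interval 1990 to 4904), and 19.9% of it had a shared region closer than 100 bp. Closeness to a shared site was therefore not limited to the gained class. Regions are not replicates of a condition, and these distances were not tested.

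**Figure D2:**
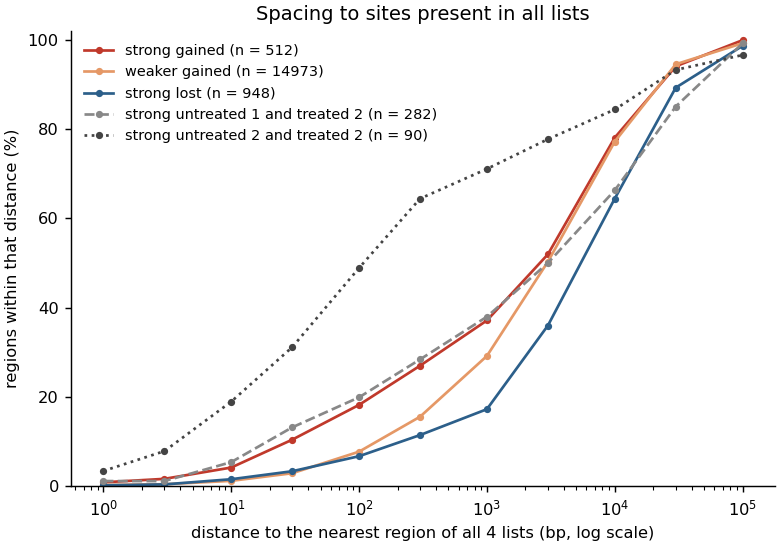
Cumulative percentage of regions (vertical axis) within a given distance in bp of the nearest region present in all 4 lists (horizontal axis, log scale), for strong gained, weaker gained and strong lost regions and for 2 classes that mix an untreated and a treated library. The strong gained curve passes 18.2% just below 100 bp and 78.1% at 10 kb, and lies above the strong lost curve up to 30 kb.

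The distance to any untreated peak, shared or not, was shorter still. An untreated peak lay closer than 500 bp in 224 strong gained regions (43.8%, interval 39.5 to 48.1), and 236 (46.1%, interval 41.8 to 50.4) had no untreated peak within 1 kb. Among strong lost regions the same measures, taken to treated peaks, were 23.4% and 67.6%. In the mixed class of untreated 1 with treated 2, taken to the lists without a peak, they were 44.0% and 45.7%. A region without a listed untreated peak is not a region without untreated reads. The numbers in the authors' peak names run in order along the genome, and letters mark several summits of a wide peak. In 224 regions (43.8%) a number or a letter was missing between the untreated peaks on either side, so that a called summit may have been removed in between. Missing names were not particular to this class. In the lists without a peak they were found for 39.5% of weaker gained, 36.8% of strong lost and 39.0% to 60% of mixed regions, by class. In 54 strong gained regions (10.5%) an untreated called peak that starts or continues across the region reached over it without a listed summit there. All 54 had an untreated peak closer than 500 bp. In both treated lists 48 regions (9.38%) were summits of a wider called peak that also had a summit in a shared region. All 48 were among those with an untreated peak closer than 500 bp. These 48 thus shared a called peak with a constitutive site in both treated libraries. The stricter set, with no untreated peak within 1 kb, no missing name and no reaching peak, held 144 regions (28.1%, interval 24.4 to 32.2). Applied in the same way to strong lost regions, these conditions kept 421 of 948 (44.4%, interval 41.3 to 47.6).

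The region with the highest coverage, chr19:38663879-38664394, also met the stricter conditions. Its coverage was 36 in treated replicate 1 and 45 in treated replicate 2. The nearest untreated peaks lay 9037 bp away in replicate 1 and 2140 bp away in replicate 2. Its nearest shared region was weak in every library, with 8 and 6 without treatment and 6 and 6 with it, so the gained peak was far higher than the constitutive site nearest to it. The region chr11:87002838-87003355, with 23 and 30, was the farthest of all 512 from a shared region, at 60418 bp, although both untreated lists had a peak 1084 bp away. The region chr5:131942802-131943312 had 17 and 41, with untreated peaks 1570 and 5250 bp away. These 3 were the members of the stricter set among the 20 strong gained regions that were highest in their weaker library.

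A further 5 of those 20 had no untreated peak within 1 kb but a missing untreated name in the gap. On chromosome 20, chr20:48319373-48319874 reached 25 and 30 and had a shared region 1009 bp away. On chromosome 5, chr5:73196487-73197273 reached 23 and 22 and lay 36756 bp from a shared region. The remaining 3 lay more than 5 kb from any untreated peak. The region chr12:112090320-112090831 had 24 and 21, with untreated peaks 6594 and 5865 bp away. The region chr1:3752935-3753450 had 19 and 27, with untreated peaks 13035 and 7944 bp away. The region chr3:29425972-29426506 had 18 in both treated libraries, with untreated peaks 23728 and 45626 bp away.

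The other 12 of the 20 lay within 1 kb of an untreated peak, and 7 of them lay closer than 100 bp to a shared region. The region chr16:83739952-83740460, with 30 and 31, began 14 bp from a shared region whose coverage was 69 and 55 in the untreated and 39 and 46 in the treated libraries. The region chr5:891170-891697, near the end of the short arm, had 21 and 33 and lay 16 bp from a shared region with 76 and 56 against 22 and 49. The region chr10:4868075-4868574, with 21 and 23, was 9 bp from a shared region with 46 and 22 against 22 and 23. At these 3 the constitutive neighbour was no higher in raw coverage in the treated libraries than in untreated replicate 1.

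The other 4 neighbours went different ways. The region chr3:39456483-39457135, with 20 and 25, lay 20 bp from a shared region with 15 and 17 in the untreated and 20 and 35 in the treated libraries. The region chr6:38200360-38200866, with 20 and 29, lay 19 bp from one with 23 and 19 against 19 and 28. At the chromosome 3 neighbour both treated libraries were the higher, and at the chromosome 6 neighbour the groups overlapped in raw coverage, while relative to the library medians they stood at 1.0 and 1.06 against 1.73 and 1.75. The region chr1:1710157-1710679, with 20 and 28, lay 9 bp from one with 44 and 49 against 16 and 33, and chr19:47235391-47235892, with 18 and 23, lay 66 bp from one with 31 and 26 against 15 and 20. At both of these the untreated libraries were the higher in raw coverage, but relative to each library's median over shared regions the groups overlapped. On that relative scale, the treated libraries were both higher at 2 of the 7 neighbours, those on chromosomes 3 and 6, and both lower at the one on chromosome 5, and the groups overlapped at the other 4.

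The last 5 of the 20 had an untreated peak within 1 kb and no shared region closer than 100 bp. The region chr1:36573865-36574369, with 18 and 22, lay 175 bp from a shared region, and an untreated called peak of replicate 1 and of replicate 2 reached over it. The region chr4:1669445-1670226, with 27 and 24, had a peak of untreated replicate 1 at 80 bp but none of replicate 2 within 5556 bp. The region chr17:74692808-74693339, with 21 and 41, had both untreated lists at 311 bp. For these 3 an untreated site stood next to the gained site. The region chr1:3548320-3548821, with 20 and 28, and the region chr5:176754769-176755270, with 20 and 23, had their nearest untreated peak at 956 and 906 bp. Of all 20, 16 were higher in treated replicate 2 and 3 in treated replicate 1.

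Of the 5 regions farthest from a shared region, 2 were also among the 20 strongest, on chromosomes 11 and 3. After the chromosome 11 region, the farthest from a shared region were chr16:14242314-14242840 at 51844 bp, with 12 in both treated libraries, and chr1:39784001-39784502 at 48930 bp, with 12 and 16. The chromosome 3 region above followed at 48553 bp, and chr5:107481898-107482408 at 46584 bp, with 11 and 14. The chromosome 11 region apart, these remote sites reached no more than 18 reads. The 3 nearest directly touched a shared region, chr1:31202609-31203114 with 11 and 12, chr6:7691817-7692330 with 12 and 10, and chr16:90144051-90144557 with 10 and 13. The next were chr4:3391005-3391507, with 14 and 21, at 1 bp, and chr1:19767450-19767991, with 12 and 18, at 2 bp. In all 5 the treated summit belonged to a wider called peak that also held a summit of a shared region, in both treated lists.

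Strong gained regions were unevenly spread over the autosomes. Per 1000 merged regions, chromosome 16 had the most, 2.54 (25 regions, 95% Wilson interval 1.72 to 3.75), and the gene-dense chromosome 19 followed with 2.12 (29 regions, interval 1.48 to 3.05). Chromosome 2 had the fewest, 0.694 (18 regions, interval 0.439 to 1.10), next to chromosome 8 with 0.734 (8 regions, interval 0.372 to 1.45). In absolute numbers chromosome 1 held 69, chromosome 5 held 51 and chromosome 11 held 44. Strong lost regions followed another order, with 4.04 per 1000 on chromosome 8, 3.28 on chromosome 2 and 1.83 on chromosome 16. In raw coverage chromosomes 11, 16, 19 and 20 were the autosomes with more strong gained than strong lost regions, at 44 against 31, 25 against 18, 29 against 23 and 25 against 19. With coverage scaled to a common library median, all 22 autosomes had more gained than lost regions. In the stricter set chromosome 16 also stood highest, with 10 regions or 1.02 per 1000, and chromosome 19 came second, with 11 regions or 0.805 per 1000. Intervals cover counting error only.

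**Figure D3:**
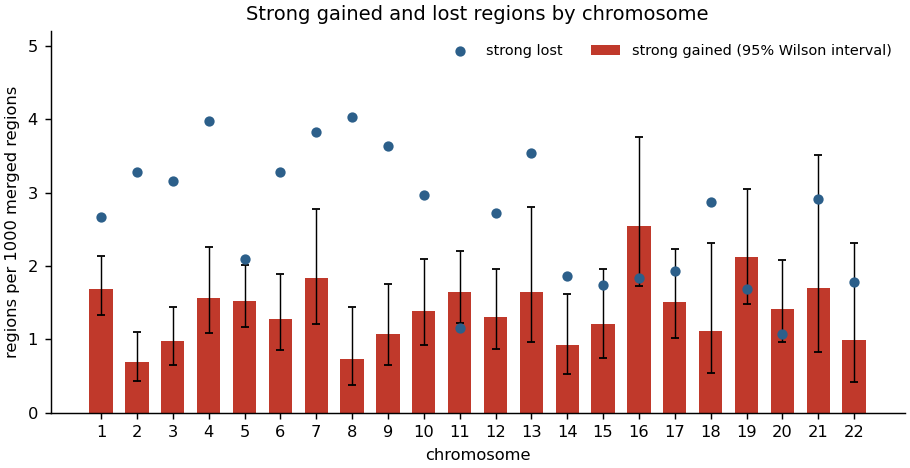
Strong gained regions per 1000 merged regions on each autosome (bars, with 95% Wilson intervals) and strong lost regions per 1000 (points). Chromosomes 16 and 19 have the highest bars, at 2.54 and 2.12, and chromosomes 2 and 8 the lowest, at 0.694 and 0.734, where the points for lost regions stand at 3.28 and 4.04.

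Many strong gained regions lay towards chromosome ends. Within 5 Mb of either end, measured from base 1 or from the last listed peak, lay 134 of 512 (26.2%, interval 22.6 to 30.1). The same stretches held 12% of all merged regions (43871 of 366095) and 10.2% of shared regions. Weaker gained regions stood at 19.3%, strong lost regions at 6.54% (interval 5.14 to 8.30), and the mixed classes at 3.64% to 8.57%. The first 5 Mb of chromosome 11 held 13 strong gained and 0 strong lost regions. The last 5 Mb of chromosome 12 held 10 and 3, the first 5 Mb of chromosome 4 held 9 and 1, and that of chromosome 7 held 8 and 0. The last 5 Mb of chromosome 13 held 8 and 0, and the first 5 Mb of chromosome 17 held 8 and 3. Of 39 ends with any merged region, 9 held no strong gained region, among them the last 5 Mb of chromosome 2 with 1347 merged regions, and the last 5 Mb of chromosome 9 held 1 among 1865. As background, the end of the short arm of chromosome 11 carries a large imprinted domain, in which methylation of control regions sets the parental expression of genes such as IGF2 and H19. Whether any of the 13 regions lies within it was not analysed here.

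Most strong gained regions stood alone, with a median of 639584 bp to the next one. Chaining those that followed each other within 200 kb gave 16 clusters of 3 to 6 regions, which held 56 of 512 (10.9%). The number was 15 for regions with no untreated peak within 1 kb and 19 with a coverage minimum of 12. It was 205 and 238 without untreated replicates 1 and 2, and 1709 and 627 without treated replicates 1 and 2, when far more regions met the rule. The same chaining put 24 of 948 strong lost regions (2.53%) in clusters, none larger than 3. Of the 16 clusters, 9 lay within 5 Mb of a chromosome end. Their spans, 35.7 to 319 kb long, held 1085 merged regions in all, of which 111 (10.2%) were weaker gained regions and 18 (1.66%) were lost regions. On all autosomes 14973 of 366095 merged regions were weaker gained, 4.23% were gained with strong ones included, and 3.33% were lost. The spans were drawn around regions with treated peaks only, so these shares are not independent of the rule. Only 2 strong lost regions lay in any of the spans.

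The densest cluster was a stretch of 35.7 kb on chromosome 1, chr1:41481403-41517147, in which sites outside the rule were also higher in the treated libraries. Its 5 strong gained regions had a coverage of 12 and 13, 17 and 15, 11 and 22, 19 and 10, and 13 and 16 in treated replicates 1 and 2, in order of position. Apart from these 5, the 9 shared regions within the span, which the rule did not use, had a median coverage of 7 and 8 without treatment and of 20 and 24 with it. The groups did not overlap, although treated replicate 1 had the lowest peaks genome-wide. These shared regions are not fully separate from the chosen sites. The regions chr1:41510590-41511503 and chr1:41512715-41513756 lay 40 and 175 bp from a shared region, so the same reads can fall in both. In both treated lists the former was a summit of a wider called peak that also had a summit in a shared region. Peaks outside the 5 regions numbered 15 and 21 in the untreated lists and 37 in each treated list. All 5 regions had an untreated peak within 1 kb, and a peak number was missing beside 1 of them. The gained sites thus stood among untreated peaks of low coverage.

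The largest cluster was near the end of the long arm of chromosome 12, chr12:132505768-132673847. Its 6 regions had 15 and 13, 10 and 21, 14 and 16, 10 and 10, 13 and 10, and 11 and 10 in treated replicates 1 and 2. No lost region lay in this span, and 8 weaker gained regions did. Its 10 shared regions did not show the pattern of the chromosome 1 stretch in raw coverage, with medians of 14.5 and 9 in the untreated and 10.5 and 13.5 in the treated libraries. Relative to each library's median they were 0.630 and 0.50 against 0.955 and 0.844, so both treated libraries were higher on that scale.

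On the short arm of chromosome 4, chr4:7650578-7969613 held 5 regions with 10 and 10, 12 and 22, 15 and 23, 16 and 20, and 15 and 28. The first and the last of these abutted shared regions, at 12 and 11 bp, and an untreated called peak reached over both. The 3 between them were 1917 to 18446 bp from a shared region. The span also held 22 weaker gained and 4 lost regions among its 195 merged regions.

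On chromosome 11, chr11:2206096-2407542 held 4 regions with 10 and 11, 13 and 13, 14 and 16, and 10 and 10. All 4 lay within 1 kb of an untreated peak, and an untreated peak number was missing beside 3 of them. Its 12 shared regions had medians of 12.5 and 13 in the untreated and 10 and 10.5 in the treated libraries, so raw coverage there was lower in the treated libraries, and relative coverage overlapped between the groups at 0.543 and 0.722 against 0.909 and 0.656. A second cluster on that arm, chr11:611319-659774, held 3 regions with 10 and 15, 16 and 17, and 12 and 21. There the 12 shared regions had medians of 9.5 and 14.5 against 16.5 and 17, higher in both treated libraries. On chromosome 7, chr7:4745867-4781809 held 3 regions with 13 and 11, 10 and 17, and 12 and 11, none within 1 kb of an untreated peak. That span held 2 peaks in each untreated list and 13 in each treated list, where 10 lay outside the 3 regions. Its 1 shared region went the other way, with 45 and 36 reads without treatment and 16 and 29 with it, or 1.96 and 2.0 against 1.45 and 1.81 relative to the library medians.

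Counting the peaks that were not in strong gained regions, both treated lists exceeded both untreated lists in 14 of the 16 cluster spans, and in none were both lower. The treated lists were longer genome-wide. As a share of each list's autosomal peaks both treated lists were the higher in 13 spans, and the groups overlapped in the other 3, on chromosomes 11, 16 and 19. These counts are not independent of the rule, since the spans were chosen by peaks of the treated lists. The counted peaks include those of the 111 weaker gained regions, which by definition occur in treated lists only. The median relative coverage of shared regions was higher in both treated libraries in 9 spans and lower in both in 2.

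**Figure D4:**
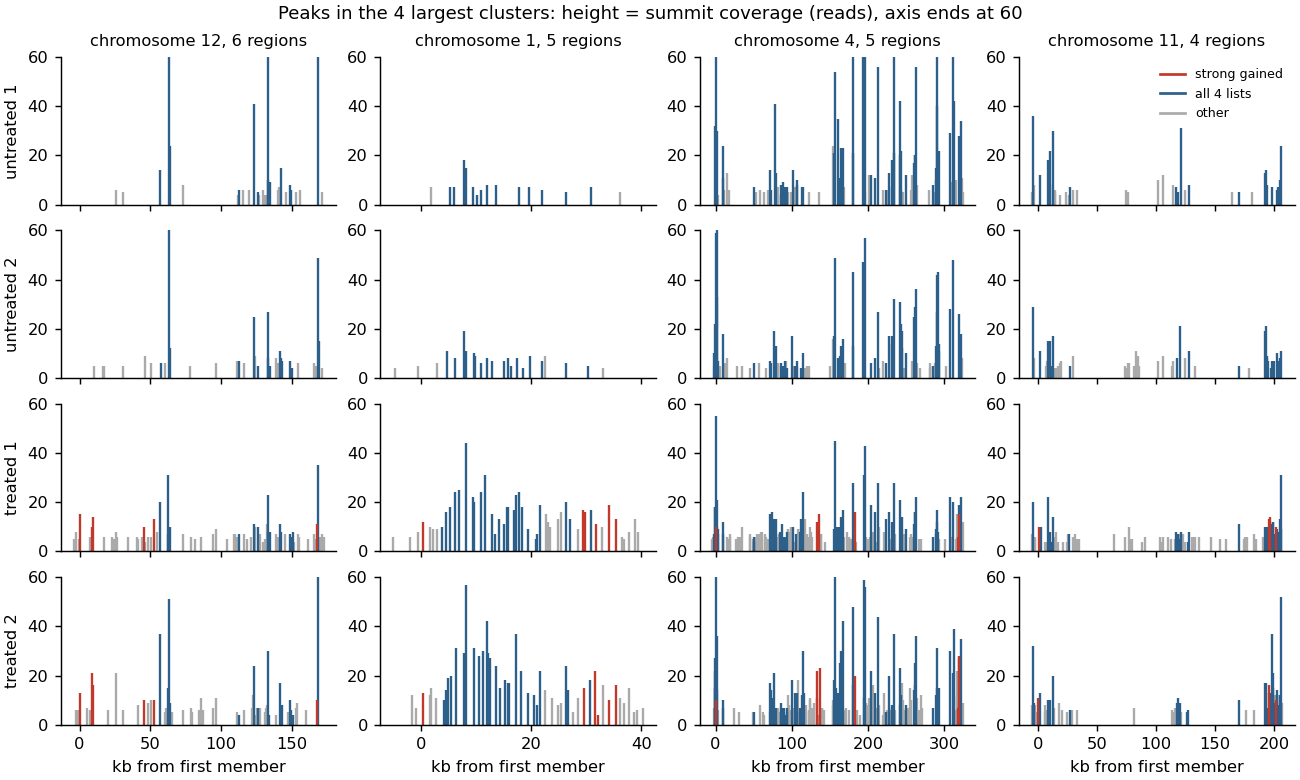
Peaks in the 4 largest clusters (columns) in each library (rows), placed by distance in kb from the first strong gained region, with height giving summit coverage in reads up to 60. Red lines are strong gained regions, blue lines regions of all 4 lists and grey lines other peaks. In the chromosome 1 cluster the blue lines are taller in the treated rows, and in the chromosome 11 cluster they are not. Taking the highest peak of each of the 9 shared regions of the chromosome 1 cluster, the median was 20 and 24 against 7 and 8.

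Shared regions around strong gained regions had relatively more coverage in the treated libraries, and the rule did not use these sites. Coverage was divided by the library's own median over all shared autosomal regions, because the libraries differed in peak height. Over the 1098 shared regions within 10 kb, the median relative coverage was 0.957 and 1.0 without treatment and 1.27 and 1.25 with it, in order of replicate number. The treated mean was 1.26 ± 0.0161 and the untreated mean 0.978 ± 0.0307 (SD, n = 2 each), a log2 ratio of 0.37, and the groups did not overlap. The exact two-sided permutation test over libraries gave p = 0.33, the smallest value that 2 against 2 allows, so it could not pass a threshold. Of these 1098 regions, 466 (42.4%) were relatively higher in both treated than in both untreated libraries and 198 (18.0%) were lower in both, against 27.2% and 22.3% of all shared autosomal regions. Without the division the median coverage of the 1098 regions was 22 and 18 reads without treatment and 14 and 20 with it, so the groups overlapped and the direction rests on the scaling. Medians of whole-number coverage move in steps of 1 read, so small differences in relative coverage cannot be read.

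The difference was larger within 10 kb of the strong gained regions than beyond. At 2 to 10 kb relative coverage was 0.826 and 0.889 in the untreated and 1.18 and 1.13 in the treated libraries, a log2 ratio of 0.43. Below 2 kb it was 1.22 and 1.28 against 1.55 and 1.5, a log2 ratio of 0.29. At 10 to 50 kb the log2 ratio was 0.14, and at 50 to 200 kb it was 0.11. Leaving out shared regions closer than 1 kb, where the same reads can fall in both sites, gave a log2 ratio of 0.40. Around strong lost regions, within 10 kb, median relative coverage was 1.13 and 1.11 in the untreated and 1.09 and 1.13 in the treated libraries, so the groups overlapped. Of these 1332 shared regions, 282 (21.2%) were relatively higher in both treated libraries and 375 (28.2%) lower in both. Among all shared autosomal regions the shares were 27.2% and 22.3%. Within 2 kb of strong lost regions they were 16.1% and 34.6%, so by this count the order was the reverse of that around strong gained regions. At 2 to 10 kb from strong lost regions the treated libraries were both lower, with 1.13 and 1.11 against 1.09 and 1.06, a log2 ratio of −0.06. Within 10 kb of the mixed class of untreated 1 with treated 2, median relative coverage was 1.22 and 1.28 against 1.27 and 1.19.

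**Figure D5:**
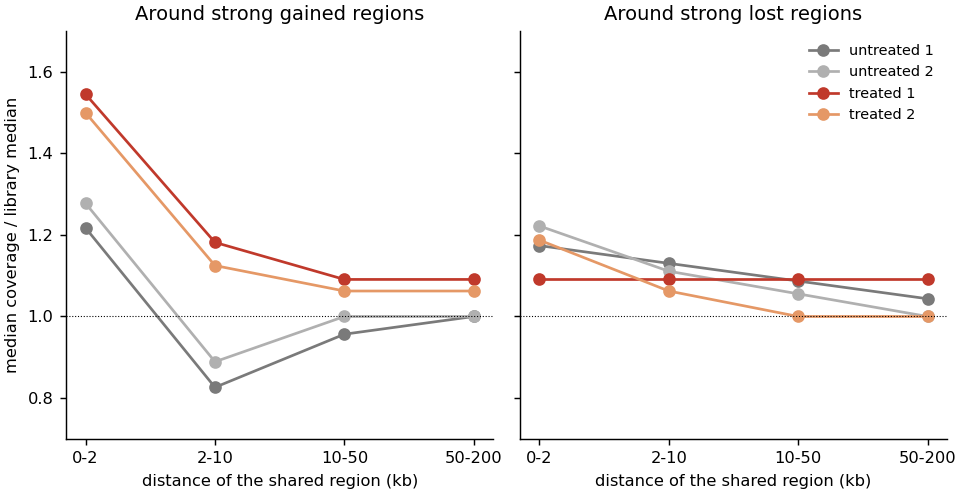
Median coverage of shared regions relative to the library's median over all shared autosomal regions (vertical axis, from 0.7), by distance in kb from a strong gained (left) or strong lost (right) region, with 1 line per library. On the left both treated lines lie above both untreated lines in each distance class, by a log2 ratio of 0.29, 0.43, 0.14 and 0.11 from near to far, and on the right the lines lie closer together and cross.

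Position on the chromosome moved with this result. Shared regions within 5 Mb of a chromosome end were as a whole relatively higher in the treated libraries, with 0.870 and 0.889 in the untreated and 1.0 in each treated library. Around the 134 strong gained regions at chromosome ends the neighbours stood at 0.739 and 0.806 against 1.18 and 1.06. Around the 378 elsewhere they stood at 1.07 and 1.11 against 1.27 and 1.31, while shared regions there as a whole were at 1.0 in all 4 libraries. The groups were thus apart at ends and elsewhere. For the 144 regions of the stricter set the values were 0.826 and 0.889 against 1.18 and 1.19.

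Other peaks were also relatively more frequent near strong gained regions in the treated lists. Peaks within 50 kb of a strong gained region but in none of them made up 3.99% and 4.56% of the untreated lists, by replicate number, and 5.25% and 5.23% of the treated lists. The means were 4.27% ± 0.403 and 5.24% ± 0.0182 (SD, n = 2 each), a log2 ratio of 0.29, and the groups did not overlap. The exact two-sided permutation test again gave its smallest value, p = 0.33. The measure was not independent of the rule, which favoured this direction in advance, so neither the order nor the test is support. It counted peaks of weaker gained regions, which only treated lists hold, and left out no distance next to a region. Around strong lost regions the order of the shares was the reverse, with 5.21% and 5.22% against 4.83% and 4.94%. There weaker lost regions, which only untreated lists hold, were counted in the same way. Around the mixed class of untreated 1 with treated 2 the shares were 1.5% and 1.49% against 1.44% and 1.49%.

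Near strong gained regions, weaker gained regions were found more often than lost regions. A weaker gained region lay within 5 kb of 180 of them (35.2%, interval 31.1 to 39.4), and a lost region of any coverage lay within 5 kb of 12 (2.34%, interval 1.35 to 4.05). Within 20 kb the numbers were 313 (61.1%) and 91 (17.8%). Another strong gained region lay within 20 kb of 44 (8.59%). All gained regions, weaker ones included, were only 1.27 times as many as lost regions of any coverage, 15485 against 12191. The same shares were not computed around strong lost regions or around all merged regions. Without that background, these numbers do not tell whether nearness to weaker gained regions was particular to this class.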

How the data were processed

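ATAC-seq libraries of BCPAP cells, 2 untreated and 2 treated with 5-azacytidine, were available as 1 peak list each. MACS2, Picard, Bowtie2, Trimmomatic and hg19 are named in the submitters' processing notes, with versions and settings not given in the sources used here. All peaks were called per library, as the deposited peak names show, and the authors set nearly all intervals to 500 bp. The authors scaled the peak score to the same total in each list, and it was not used. The fold over a uniform background is the authors' own value per peak, and so are the deposited −log10 p and q values. The deposited summit offset was used only to find where a called peak starts. The number of reads is unknown.

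Summit coverage was 5 times the fold divided by the smallest fold of the list, minus 1, rounded; all values were within 0.002 of a whole number, and the lowest was 4. Regions were classed and measured with scipy 1.17.1, pandas 2.3.3, matplotlib 3.10.9 and numpy 2.4.6 under Python 3.11.15, tested on simulated lists with sites close together. The 2 groups were compared with a two-sided exact permutation test (6 assignments of libraries), and shares carry 95% Wilson intervals. No label ties a replicate number to a batch, and the main comparisons ignore it. Named regions are the 20 with the highest coverage in their weaker library, members of the 6 largest clusters (ties in number of regions taken by the shortest span), the 5 nearest to and farthest from a shared region, and extreme chromosomes. Regions, lists and most measures were chosen with earlier results of these data known. The planned gene lists, markers and sequence content need hg19 gene positions or sequence and were not run.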

Additional observations from a re-analysis of the deposited data

Results flagged for a closer look

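Outside chromosomes 1 to 22 and X, 2 strong gained regions lay on unplaced contigs, with no untreated peak, and no strong lost region did. Their coverage was 14 and 20 in treated replicates 1 and 2 at the first and 10 and 12 at the second. A strong region of the mixed class of untreated 2 with treated 1 also lay on such a contig. Chromosome X held 7 strong gained and 23 strong lost regions.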

How the results depend on the processing

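The number of strong gained regions depended on the limits set. It was 512 as reported, 1593 with a coverage minimum of 8, 210 with 12 and 67 with 15. Intervals of 100 bp on either side of the summit gave 2431. Merging across 150 bp, equal list lengths and leaving out regions with a missing untreated peak number gave 375 to 517. Of the settings added after seeing the data, excluding missing letters too gave 288, and requiring no untreated peak within 1 kb gave 236. With a library left out, 1 condition of the rule drops away, and the number was 3860 without treated replicate 1, 1882 without treated replicate 2, 1242 without untreated replicate 1 and 1072 without untreated replicate 2.

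The log2 ratio of strong gained to strong lost regions was −0.89. It was −0.65 with a minimum of 8, −1.12 with a 150 bp merging distance, and −2.26 to 0.86 without a library, and it turned to 1.87 with coverage scaled to a common library median. It turned without treated replicate 1, where it was 0.86. The median distance to a shared region was 2760 bp, and 4318 bp with a minimum of 15, 3501 bp between midpoints, 4389 bp with 150 bp merging, 7296 bp with no untreated peak within 1 kb, and 743 to 1716 bp without a library. The 56 regions in clusters were 37 with a gap of 100 kb, 111 with 500 kb, 19 with a minimum of 12, 15 with no untreated peak within 1 kb, and 205 to 1709 without a library. The cause of these changes was not tested, beyond the change of limits or libraries itself.

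The higher relative coverage of neighbouring shared regions kept its direction under all 9 alternatives run, each relative to the library as a whole, with log2 ratios of 0.11 to 0.45. The higher share of other peaks did so under all 8, with 0.13 to 0.42. For that share the rule favoured the direction in advance, so its being kept is no support. With the replicate block, permuting within replicate numbers, the log2 ratios were the same 0.37 and 0.29 and p was 0.5 for both, the smallest possible. This setting is counted among the 9 and the 8, but it changes only p, so its direction was fixed in advance. The lowest log2 ratio of coverage, 0.11, came without treated replicate 2, and the lowest of peaks, 0.13, without untreated replicate 1. Without treated replicates 1 and 2 in turn, coverage gave 0.19 and 0.11, and peaks gave 0.14 and 0.21. In each of these settings an untreated library stood at least as far from the mean of the others as the remaining treated library did. The kept direction is therefore no more than a sign there. The number of cluster spans with more other peaks in both treated lists, 14 of 16, was 13 as a share of each list, a setting added after seeing the data. With 2 libraries a group no setting could pass a threshold.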
